A study of Mus musculus with 21 samples.

Results

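The genes described here are *Trp53*, which encodes p53, and 9 genes grouped with it for arrest and feedback, *Cdkn1a*, *Mdm2*, *Mdm4* (included as an inhibitor of p53), *Ccng1*, *Trp53inp1*, *Sesn1*, *Sesn2*, *Phlda3* and *Zmat3*. They were taken by symbol from the table of 55421 genes measured by QuantSeq 3′ mRNA sequencing, and all 10 were among the 11554 genes with a mean above 1 TPM that could be tested. ChIP-seq peaks were added where a member was the nearest gene, which gave 2 of 5898 Zbtb1 peaks and 6 of 6077 Cbfa2t3 peaks.

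p53 is a transcription factor that is made continuously and degraded continuously. Mdm2, a ubiquitin ligase, marks it for degradation, and Mdm4, a relative without strong ligase activity of its own, binds p53 and holds back its activity. After DNA damage or other stress p53 is stabilized, so that its activity is set largely at the protein level and *Trp53* mRNA need not move. Active p53 raises *Cdkn1a*, which encodes the CDK inhibitor p21 and stops the cell cycle, and *Mdm2*, which closes a negative feedback loop. In lymphoid progenitors p53 is known as a limit on the survival of cells with damaged DNA.

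All libraries came from an *Ebf1*-deficient lymphoid progenitor (LP) line, a single mouse line of strain C57BL6/J that was cultured on OP9 stromal cells with SCF, IL-7 and Flt3L and received no Notch stimulation. LPs that carried a Cas9-GFP vector, controls included, received sgRNA vectors with an hNGFR marker, a pool of 2 for each gene (*Lmo2*, *Zbtb1*, *Cbfa2t2*, *Cbfa2t3*), or luciferase sgRNA (sgControl), and were sorted as GFP+ hNGFR+ cells 5 days later. Each of the 5 conditions had 3 biological replicates, and p-values measure the spread between these replicates of 1 line. ChIP-seq was done for Zbtb1, a zinc finger transcription factor, and for Cbfa2t3, a corepressor of the ETO family, in 2 replicates each of LPs without sgRNA.

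What the authors call TPM is here the reads of a gene after each library was scaled to 1 common total, with no division by transcript length, since QuantSeq reads each mRNA once, near its 3′ end. Between 1705416 and 2095447 reads per library could be recovered, so that 3 reads were worth 1.43 to 1.76 TPM. A member had between 14 reads (*Phlda3*) and 1495 reads (*Cdkn1a*) in a library. All 6 LP markers were present in every library, with summed levels of 1112 to 1256 TPM, whereas the markers of other cells were low in sum (B cell at most 18.1 TPM, T cell 1.74, myeloid 30.3, OP9 stroma 11.9). The erythroid sum, nearly all *Hbb-bt*, was 114 to 148 TPM in sgControl, 71.2 to 113 in sgLmo2, 112 to 168 in sgZbtb1, 153 to 182 in sgCbfa2t2 and 184 to 277 in sgCbfa2t3, and the B cell sum, nearly all *Pax5*, was 5.21 to 8.79 TPM in sgControl, 6.57 to 18.1 in sgLmo2, 0 to 1.47 in sgZbtb1, 1.60 to 6.28 in sgCbfa2t2 and 1.07 to 2.85 in sgCbfa2t3. Of the LP markers, *Kit* was at 16.2, 7.65 and 6.87 TPM in sgZbtb1 against 21.5 to 22.9 TPM in sgControl, *Ptprc* at 362 to 408 TPM against 441 to 513 TPM, and *Cd93* at 314 to 355 TPM against 210 to 240 TPM. *Kit* and *Ptprc* were also below all controls in sgCbfa2t2 and sgCbfa2t3, and *Cd93* above them. *Il7r* was below all controls in sgCbfa2t2 and sgCbfa2t3 and above them in sgLmo2. *Dntt* was above all controls in sgCbfa2t3 and below them in sgLmo2. The part of these markers in the results was not tested. None of the 4 targeted mRNAs was lower by the test in the libraries that carry its name. *Zbtb1* mRNA was 106 ± 9.91 TPM (SD, n = 3) in the libraries labelled sgZbtb1 against 61.7 ± 5.51 TPM in sgControl (limma adjusted p = 0.00102), and *Cbfa2t3* mRNA was 350 ± 12.9 TPM in the libraries labelled sgCbfa2t3 against 190 ± 18.7 TPM (adjusted p = 1.67e-07). Reads at the 3′ end of an mRNA do not show whether its coding sequence was cut, so the directions below rest on the labels. The study examined the targeted proteins by immunoblotting, which was not analysed here. In bulk RNA, fewer cells with a transcript and less of it per cell cannot be told apart.

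*Trp53* (11:69580359-69591873, plus strand, GRCm38) was the first member examined, as the source of the pathway. Its level was 62.1, 63.1 and 68.6 TPM in the sgControl libraries and 68.2, 57.9 and 50.6 TPM in the libraries labelled sgZbtb1. It was 84.8, 60.1 and 76.1 TPM in sgLmo2, 79.8, 51.1 and 58.9 TPM in sgCbfa2t2, and 53.6, 74.8 and 54.8 TPM in sgCbfa2t3. All 5 conditions overlapped, and no comparison passed the test. For sgZbtb1 against sgControl the log2 fold change was −0.14 ± 0.17 (SE; limma adjusted p = 0.728), with a 95% interval of −0.48 to 0.20.

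*Cdkn1a*, the gene of p21, was the only member called in any comparison at a limma adjusted p under 0.05. It rose in the libraries labelled sgZbtb1. Its level (17:29090976-29100727, plus strand) was 508, 486 and 478 TPM in sgControl and 697, 715 and 623 TPM in sgZbtb1. In sgLmo2 it was 515, 545 and 382 TPM, in sgCbfa2t2 404, 476 and 507 TPM, and in sgCbfa2t3 540, 553 and 561 TPM. Each sgZbtb1 library was thus above all 12 others, and the means ran from sgZbtb1 (678 ± 48.8 TPM) through sgCbfa2t3 (551 ± 10.2 TPM) and sgControl (491 ± 15.4 TPM) to sgLmo2 (481 ± 86.9 TPM) and sgCbfa2t2 (462 ± 52.7 TPM; SD, n = 3 each). The libraries of the last 3 conditions overlapped one another, those of the first 3 did not, and sgCbfa2t3 overlapped sgLmo2. Against sgControl the ratio of the sgZbtb1 mean was 1.38 and the log2 fold change 0.46 ± 0.09 (limma adjusted p = 0.000496). Against the 9 libraries of the other 3 targeted genes it was 0.45 ± 0.08 (limma adjusted p = 1.73e-05), which tests whether the rise differed from that with the other sgRNAs. The exact two-sided permutation test gave p = 0.1 against the 3 sgControl libraries and 0.00909 against the 9, the smallest values that these numbers of libraries allow. On unlogged values with the variance of each gene taken alone and the same adjustment over all genes, the adjusted p was 0.165 and 0.111, and the call was lost in both comparisons. That test called 7 and 41 of the 11554 genes, where limma called 554 and 501. The only annotated gene that shares exon bases with *Cdkn1a*, AC167363.2 on the opposite strand (273 bases), was listed at 0 in all 15 libraries.

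*Cdkn1a* is a gene at which p53 is known to bind directly. RefSeq gives it 2 start sites, and the promoter window of the upstream start was 1 of 24 among 32851 such windows in GRCm38.p6, or 0.0731%, with 2 p53 half-sites at most 13 bases apart. The other window of *Cdkn1a* had none. A half-site was counted only as an exact match to RRRCWWGYYY, where R is A or G, W is A or T and Y is C or T. The bases before the upstream start (chr17:29090729-29090975, plus strand) are shown because *Cdkn1a* is the member that rose. Capitals mark the exact half-sites, 12 bases apart between positions −73 and −42 from the start. The bases tgacatgttc right after them miss the pattern only at their first letter, T, and were not marked.
Cdkn1a upstream start: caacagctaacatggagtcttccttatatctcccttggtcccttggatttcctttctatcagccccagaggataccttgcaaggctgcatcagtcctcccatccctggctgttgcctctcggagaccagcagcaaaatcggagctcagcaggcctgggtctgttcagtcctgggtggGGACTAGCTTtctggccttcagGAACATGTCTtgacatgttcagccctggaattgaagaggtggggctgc
Single p53 half-sites were found in 5 of 11 windows of the 8 members that the table holds, those of *Trp53*, *Cdkn1a*, *Mdm2*, *Ccng1* and *Sesn1*, and in 8.36% of all windows. A match describes the letters of the window and does not show binding in these cells.

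**Figure D1:**
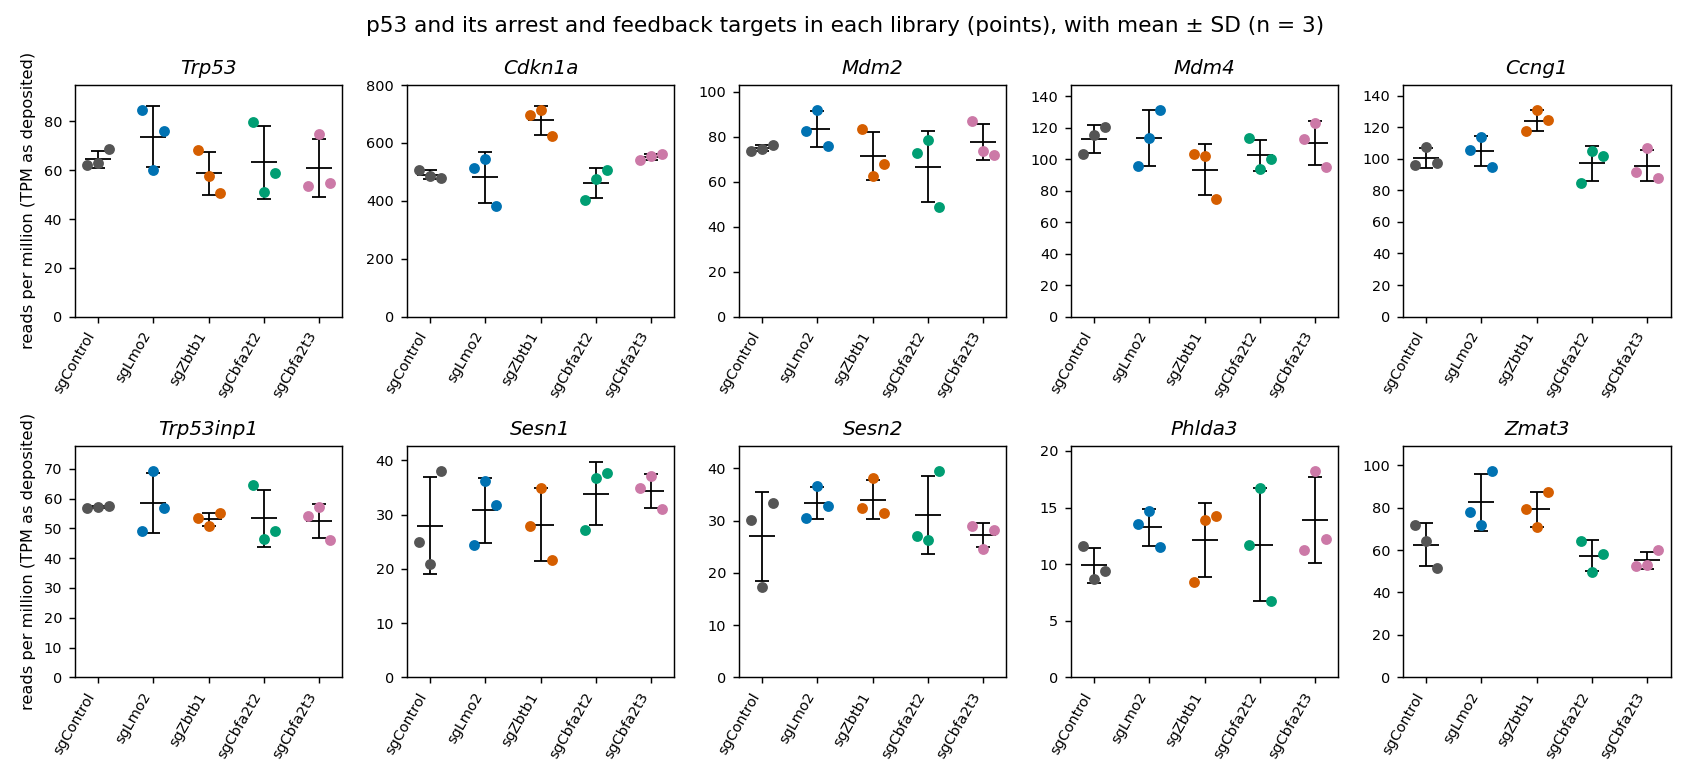
TPM of each member in the 15 libraries, by condition; points are libraries, and black bars show the mean ± SD (n = 3). For *Cdkn1a* the 3 sgZbtb1 libraries (623 to 715 TPM) lie above all others, and for *Ccng1* likewise (117 to 131 TPM), while the conditions overlap for *Trp53* and *Mdm2*.

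In sgZbtb1 against sgControl, then, 1 of 10 members was called, where 4.79% of all 11554 genes were (1.85% higher and 2.94% lower). At an unadjusted p under 0.05 there were 4 of 10, *Cdkn1a*, *Ccng1* and *Zmat3* with higher and *Mdm4* with lower values, against 17.6% of all genes. The 3 sgZbtb1 and the 3 sgControl libraries did not overlap for 4 members, against 22.9% of all genes. The median log2 fold change of the members was 0.14, with 6 above and 4 below 0, and that of all genes tested was −0.03. Nothing is read from these counts about the members as a group, which number only 10.

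Neither of the 2 direct regulators of p53 passed the test beside *Cdkn1a*. *Mdm2* (10:117688875-117710758, minus strand) was at 73.8, 74.7 and 76.2 TPM in sgControl and at 83.2, 62.6 and 67.8 TPM in sgZbtb1, one library above and the others below the controls. Its log2 fold change was −0.08 ± 0.16 (limma adjusted p = 0.853), with a 95% interval of −0.40 to 0.23. The whole interval lay below the fitted change of *Cdkn1a*, although the difference between the genes was not tested. *Mdm2* did not pass the test with any other sgRNA either, and its values ran from 48.8 TPM in a sgCbfa2t2 library to 91.9 TPM in a sgLmo2 library.

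*Mdm4* (1:132959484-133030561, minus strand), which encodes the other inhibitor of p53, was at 103, 115 and 120 TPM in sgControl and at 103, 102 and 74.6 TPM in sgZbtb1. The highest sgZbtb1 library was below the lowest control by less than the worth of 1 read. The log2 fold change was −0.29 ± 0.14 with an unadjusted p of 0.0433, and the limma adjusted p of 0.263 did not pass. Against the 9 other gene-targeting libraries the value was −0.23 ± 0.11 (limma adjusted p = 0.315), with overlapping libraries. Without sgZbtb1 replicate 3, the lowest, the value against sgControl was −0.13.

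*Ccng1* (11:40748552-40755311, minus strand) encodes cyclin G1, a p53 target that brings the phosphatase PP2A to Mdm2. It had 95.8, 108 and 97.3 TPM in sgControl and 117, 131 and 124 TPM in sgZbtb1. Like *Cdkn1a*, it was higher in each sgZbtb1 library than in any of the 12 others, whose highest value was 114 TPM. The log2 fold change was 0.31 ± 0.13 against sgControl (limma adjusted p = 0.182) and 0.33 ± 0.11 against the 9 other gene-targeting libraries (limma adjusted p = 0.0649), so that neither passed. In the second comparison edgeR and DESeq2 on the recovered reads, size factors in place of library totals, and a block for the replicate number (adjusted p = 0.0428 in limma) brought it under 0.05.

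*Zmat3* (3:32334792-32366014, minus strand), which encodes an RNA-binding zinc finger protein, had its highest values in 2 conditions. It was at 72.01, 64.2 and 51.6 TPM in sgControl, 78.0, 71.9 and 97.5 TPM in sgLmo2, and 79.3, 70.8 and 87.4 TPM in sgZbtb1. In both, 1 library lay below the highest control, and the sgCbfa2t2 and sgCbfa2t3 libraries (49.6 to 64.4 TPM) lay at the level of the controls. The log2 fold changes were 0.39 ± 0.16 in sgLmo2 (limma adjusted p = 0.849) and 0.34 ± 0.16 in sgZbtb1 (limma adjusted p = 0.245), with unadjusted p-values of 0.0172 and 0.0375.

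The other 4 members act in the response to stress, and none of them had an unadjusted p under 0.05 in any of the 5 comparisons. *Trp53inp1* (4:11156431-11174379, plus strand) encodes a nuclear protein that promotes p53-dependent cell death. The 3 controls were nearly equal at 56.9, 57.3 and 57.5 TPM, and the sgZbtb1 libraries were all lower at 53.6, 50.7 and 54.99 TPM. That separation is smaller than the spread of this gene in the other conditions (46.0 to 69.4 TPM), and limma, which shares the spread over conditions, gave −0.11 ± 0.17 (adjusted p = 0.812).

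*Sesn1* (10:41809935-41908424, plus strand) and *Sesn2* (4:132492032-132510501, minus strand) encode sestrins, stress proteins that restrain mTORC1. *Sesn1* was at 25.0, 20.8 and 38.1 TPM in sgControl and at 27.9, 34.9 and 21.6 TPM in sgZbtb1, and *Sesn2* at 30.2, 17.4 and 33.4 TPM and at 32.4, 38.2 and 31.4 TPM. The controls of *Sesn1* hold both its lowest and its highest value over the 15 libraries, and those of *Sesn2* its lowest. The log2 fold changes were 0.03 ± 0.23 for *Sesn1* and 0.37 ± 0.23 for *Sesn2* (limma adjusted p = 0.971 and 0.436).

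*Phlda3* (1:135766119-135769136, plus strand), which encodes a small PH domain protein that opposes Akt, was the member with the fewest reads. It had 11.6, 8.68 and 9.38 TPM in sgControl and 8.38, 13.9 and 14.2 TPM in sgZbtb1. Its coefficient of variation over the 15 libraries was 25.8%, against 17.3% for *Cdkn1a*, and the log2 fold change of 0.25 had a 95% interval of −0.45 to 0.94. The interval leaves both a fall and a rise possible.

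The other 3 sgRNAs moved no member past the test. In sgLmo2 against sgControl limma called 0 of 10 members and 0.0173% of all genes, and *Zmat3* alone had an unadjusted p under 0.05, against 5.65% of all genes. In sgCbfa2t2 the count was 0 of 10, against 0.147% of all genes, with 0 members under an unadjusted 0.05 and 9.56% of all genes. In sgCbfa2t3 it was also 0 of 10, against 0.537%, and 0 under an unadjusted 0.05, against 10.6%. edgeR and DESeq2 called 0 members in each of the 3 comparisons. These comparisons and that of sgZbtb1 share the 3 sgControl libraries.

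In sgCbfa2t3, *Cdkn1a* was the member whose 3 libraries were all above the 3 controls, with a log2 fold change of 0.17 ± 0.09 (limma adjusted p = 0.532). Groups did not overlap for 1 of 10 members there, against 15.8% of all genes, and for 0 of 10 in sgLmo2 and in sgCbfa2t2, against 10.6% and 13.7%. Against the 9 other gene-targeting libraries, sgZbtb1 had 1 of 10 members called, *Cdkn1a*, against 4.34% of all genes (1.46% higher and 2.87% lower). *Cdkn1a*, *Ccng1* and *Zmat3* were under an unadjusted 0.05, against 15.9%, and *Cdkn1a* and *Ccng1* did not overlap with the 9, against 4.39%.

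**Figure D2:**
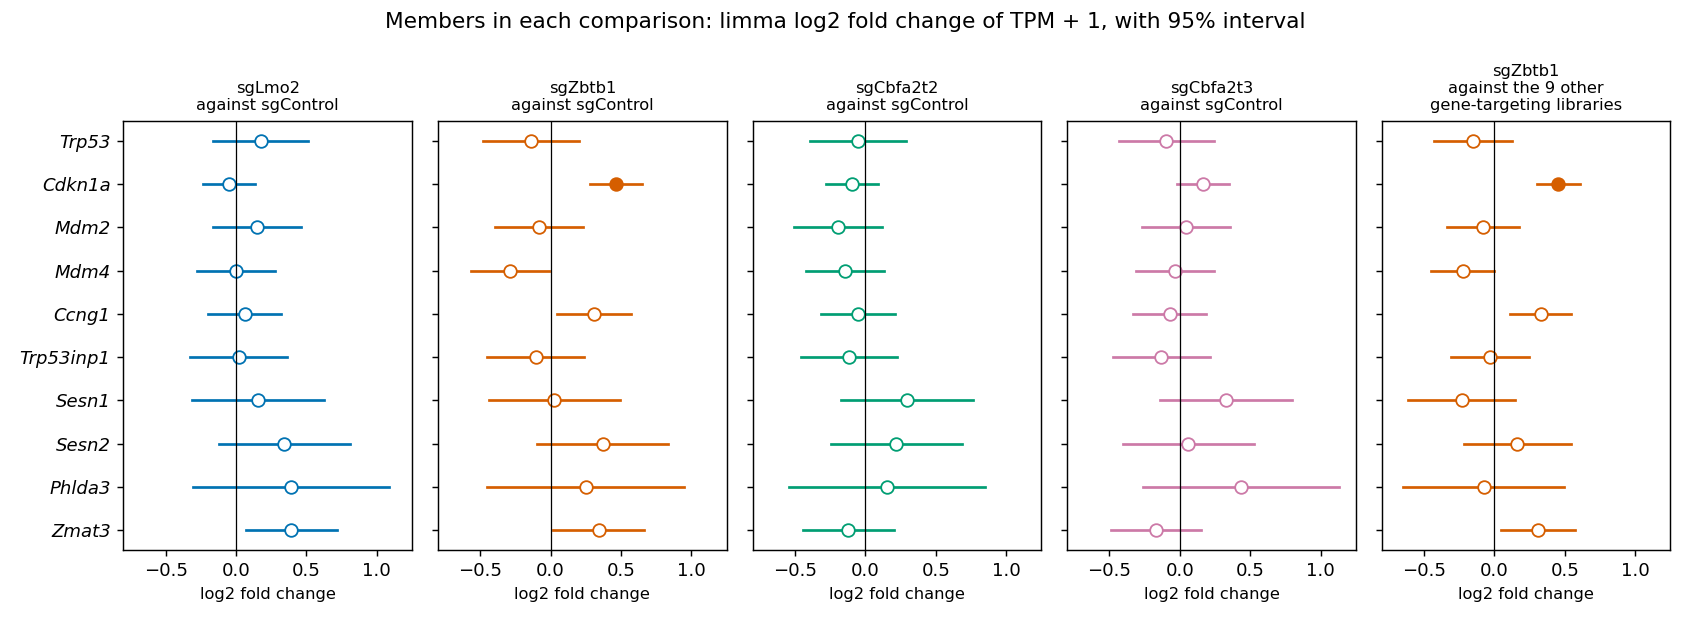
Log2 fold change of TPM + 1 of each member (points) with its 95% interval (lines) in the 5 comparisons; filled points have a limma adjusted p under 0.05. Only *Cdkn1a* is filled, in both comparisons of sgZbtb1 (0.46 and 0.45), and the widest intervals are those of *Phlda3*.

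Beside the members, 90 further genes of p53 signalling and the cell cycle were followed in 7 lists, of which 77 could be tested. In sgZbtb1 against sgControl limma called 3 of the 77, *Bax*, *Dglucy* and *Cdkn1b*, against 4.79% of all genes, and 15 had an unadjusted p under 0.05, against 17.6%, so that nothing is read from the counts about these genes as a group. Of the p53 targets that promote apoptosis, *Bax*, which opens the mitochondrial outer membrane, rose, 1 of 10 genes tested. It had 58.1, 79.9 and 76.8 TPM in sgControl and 126, 147 and 115 TPM in sgZbtb1, and no other library exceeded 92.0 TPM. The ratio of means was 1.81 and the log2 fold change 0.85 ± 0.16 (limma adjusted p = 0.000129), and against the 9 other gene-targeting libraries it was 0.81 ± 0.13 (limma adjusted p = 4.64e-06). On unlogged values the adjusted p was 0.211 and 0.0337, so that the call against sgControl was lost. *Aen*, an apoptosis-enhancing nuclease, had a log2 fold change of 0.56 ± 0.37 and did not pass (limma adjusted p = 0.457). The median of this list was 0.11.

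Of 14 other p53 targets, *Dglucy*, the gene of the mitochondrial D-glutamate cyclase, rose in sgZbtb1, from 18.0, 28.9 and 13.5 TPM to 41.3, 36.3 and 47.6 TPM. The sgZbtb1 libraries were above all controls, and the log2 fold change was 1.07 ± 0.26 (limma adjusted p = 0.00624). It was 0.43 to 0.50 with the other sgRNAs, and against their 9 libraries *Dglucy* did not pass (0.60 ± 0.21, limma adjusted p = 0.103). Against sgControl the call was lost without sgControl replicate 3 (adjusted p = 0.0963) or sgZbtb1 replicate 3 (adjusted p = 0.0607), on unlogged values (adjusted p = 0.265) and with all genes above 0 in the fit (adjusted p = 0.0577). *Ddit4*, an inhibitor of mTORC1 signalling, had 39.1, 34.9 and 37.3 TPM in sgZbtb1, below all 12 other libraries, and fell against the 9 other gene-targeting libraries by 0.57 on the log2 scale (SE 0.16, limma adjusted p = 0.0269), while against sgControl it did not pass (limma adjusted p = 0.0542). edgeR called it in both comparisons and DESeq2 in neither. The call of *Ddit4* against the 9 was also lost on unlogged values (adjusted p = 0.309), with all genes above 0 in the fit (adjusted p = 0.159) and without any 1 of the sgZbtb1 replicates (0.0707 to 0.151), sgLmo2 replicate 3, sgCbfa2t2 replicate 3 or sgCbfa2t3 replicate 2 (0.0583 to 0.0661).

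The p53 targets in arrest and feedback beyond the members held none that rose. Of 10 tested, *Ccng2*, which encodes the atypical cyclin G2, fell against the 9 other gene-targeting libraries (log2 fold change −0.77 ± 0.24, limma adjusted p = 0.0465) and did not pass against sgControl (−0.83 ± 0.29, limma adjusted p = 0.0855). Neither edgeR nor DESeq2 called *Ccng2* against the 9, the adjusted p on unlogged values was 0.139, and the call was lost without any 1 of the sgZbtb1 replicates (0.0802 to 0.2004), sgLmo2 replicate 2 or 3, sgCbfa2t2 replicate 2 or sgCbfa2t3 replicate 2 or 3 (0.0654 to 0.0913). *Btg2*, an antiproliferative gene, had −0.52 ± 0.35 (limma adjusted p = 0.477). The median of the list was −0.13. Of 8 targets in DNA repair and nucleotide supply none was called, and those with the smallest p, *Fancc* (−0.67) and *Ercc5* (0.54), had opposite signs.

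Among the other CDK inhibitors, *Cdkn1b*, the gene of p27, fell in sgZbtb1. It had 49.9, 51.5 and 46.9 TPM in sgControl and 34.6, 33.5 and 29.0 TPM in sgZbtb1, with no overlap. The log2 fold change of −0.60 ± 0.19 had a limma adjusted p of 0.04995, at the threshold, and was lost without any 1 of the 6 libraries (0.0714 to 0.185). Neither edgeR nor DESeq2 called *Cdkn1b*, and on unlogged values the adjusted p was 0.157. Against the 9 other gene-targeting libraries *Cdkn1b* did not pass (−0.40 ± 0.15, limma adjusted p = 0.146), and the libraries overlapped. The sgCbfa2t2 (41.1 to 44.2 TPM) and sgCbfa2t3 libraries (31.1 to 39.9 TPM) were also all below the controls without passing (limma adjusted p = 0.811 and 0.348). *Cdkn2a*, which encodes p16 and the Mdm2 inhibitor p19Arf and is also in the list of p53 regulators, had 67.0, 67.9 and 72.2 TPM in sgZbtb1 and at most 62.6 TPM elsewhere. Its log2 fold change was 0.45 ± 0.17 against sgControl (limma adjusted p = 0.113) and 0.44 ± 0.14 against the 9 (limma adjusted p = 0.0557). Against the 9, where the groups did not overlap, both edgeR and DESeq2 called *Cdkn2a*, and its adjusted p was under 0.05 in 7 of 21 alternatives. These values are per gene and do not tell the transcripts of p16 and p19Arf apart.

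Of 12 genes that p21 is known to lower through the DREAM complex, a repressor of cell cycle genes, none was called in sgZbtb1. Their log2 fold changes were above 0 for 8 and below 0 for 4, with a median of 0.13. *Ccnb1*, which encodes cyclin B1, had 0.30 ± 0.13 and *Chek1*, a checkpoint kinase, −0.44 ± 0.17 (limma adjusted p = 0.175 and 0.130). Of 18 relatives and regulators of p53 none was called, the median was −0.02, and *Crebbp*, a histone acetyltransferase that also modifies p53, had −0.25 ± 0.11 (limma adjusted p = 0.171). The p53 relatives *Trp63* and *Trp73* were listed at 0 in every library. In sgLmo2, sgCbfa2t2 and sgCbfa2t3 limma, edgeR and DESeq2 called 0 of the 77 genes, and 3, 3 and 5 of them had a limma unadjusted p under 0.05, against 5.65%, 9.56% and 10.6% of all genes.

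**Figure D3:**
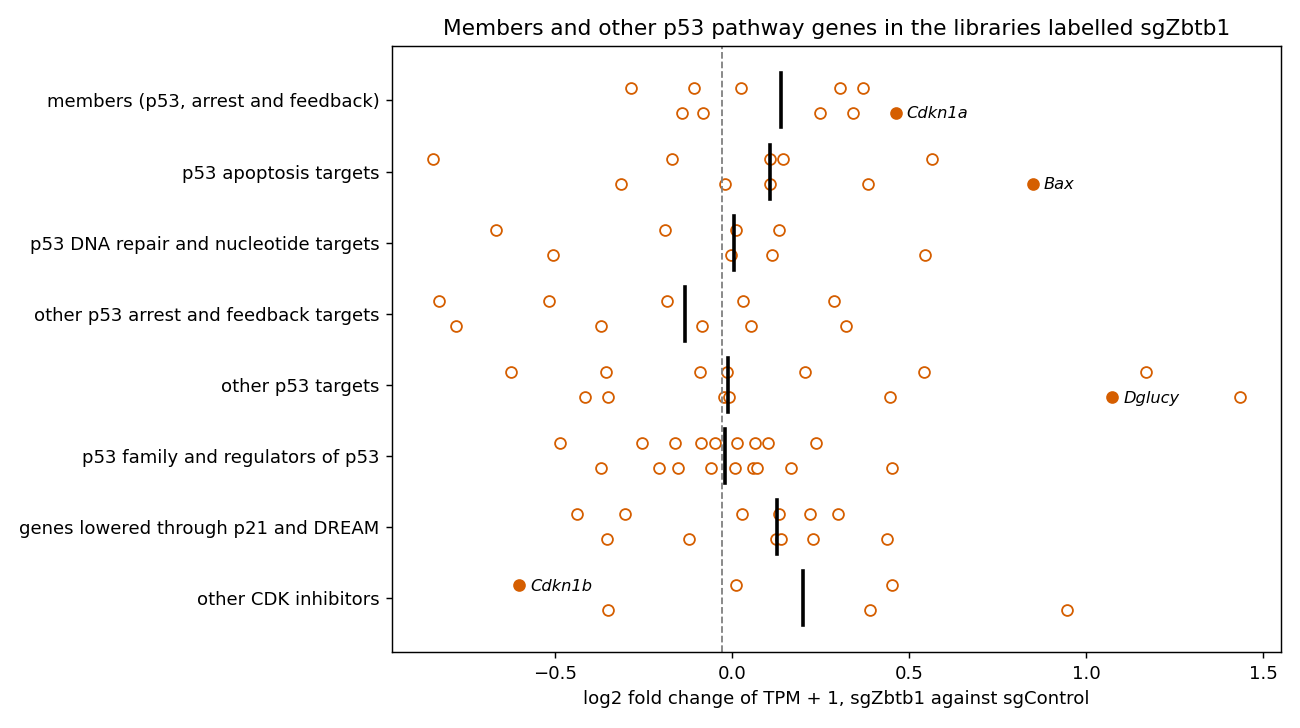
Log2 fold change of TPM + 1 in sgZbtb1 against sgControl for the 10 members and the genes of the 7 lists; each circle is a gene, filled circles have a limma adjusted p under 0.05, black bars are list medians, and the dashed line is the median of all genes tested (−0.03). *Cdkn1a* (0.46), *Bax* (0.85), *Dglucy* (1.07) and *Cdkn1b* (−0.60) are filled, and genes of every list lie on both sides of the dashed line.

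Over the 15 libraries, the protein-coding genes whose log2 levels were most like those of *Cdkn1a* were *Zmat2* (r = 0.92), *Fam111a* (r = 0.89) and *Wbp11* (r = 0.86), and the member most like it was *Ccng1* (r = 0.72). For *Ccng1* they were *Mgrn1* (0.93), *Ino80b* (0.82) and *Pura* (0.81). *Trp53* itself was most like *Bora*, *Plk4* and *Zbtb38* (r = 0.84, 0.81 and 0.81), with r = −0.41 to *Cdkn1a*, and *Mdm2* was most like *Chid1*, *Arrb1* and *AI467606* (r = 0.85, 0.82 and 0.80), with r = −0.06 to *Cdkn1a*. These are Pearson values among 7960 genes with a mean above 10 TPM. They are a description, since the points share the 5 conditions and the reads of 1 library.

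ChIP-seq showed which of these loci carried Zbtb1 or Cbfa2t3 in LPs without sgRNA. Zbtb1 had 1 of 10 members as the gene closest to a peak, *Trp53inp1*, against 26.8% of the genes tested. Cbfa2t3 had *Cdkn1a*, *Mdm2*, *Sesn1* and *Phlda3*, 4 of 10, against 20.5%. No member had peaks of both factors, and none of the 8 peaks overlapped a peak of the other list, whereas 25.2% of all Zbtb1 and 24.4% of all Cbfa2t3 peaks did. No Zbtb1 peak had *Cdkn1a* as its nearest gene, the member that rose in sgZbtb1.

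The Zbtb1 peak at *Trp53inp1* (mm10 chr4:11156372-11156742) had a score of 142.8 and spanned exon 1, with its centre 116 bases downstream of the start site in intron 1. Only 4.73% of Zbtb1 peaks scored as high, with a median of 28.0. A second peak at −9214 bases (chr4:11147042-11147412) was at the lower limit of the list with a score of 15. The log2 fold change of *Trp53inp1* in sgZbtb1, −0.11, did not pass the test.

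Of the Cbfa2t3 peaks, that of *Phlda3* (chr1:135778864-135779242) scored highest, at 101.4, and lay 12968 bases downstream of the start in intergenic sequence. *Cdkn1a* had 2, one in intergenic sequence 17798 bases downstream (chr17:29111378-29111756, score 71.3) and one in intron 1, 1766 bases from the start used in the list (chr17:29095346-29095724, score 21.4). The first was within the top 15.3% of Cbfa2t3 peaks and the second below their median of 33.2. *Mdm2* had a peak at its promoter, at −259 bases (chr10:117710828-117711206, score 28.3), and another, 28879 bases downstream (chr10:117681690-117682068, score 28.2), inside an intron of the neighbouring gene *Cpm*. The peak of *Sesn1* (chr10:41899544-41899922, score 27.6) lay in intron 5. With a score of at least 30, *Cdkn1a* and *Phlda3* remained, and within 10 kb of the start *Cdkn1a* and *Mdm2*.

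**Figure D4:**
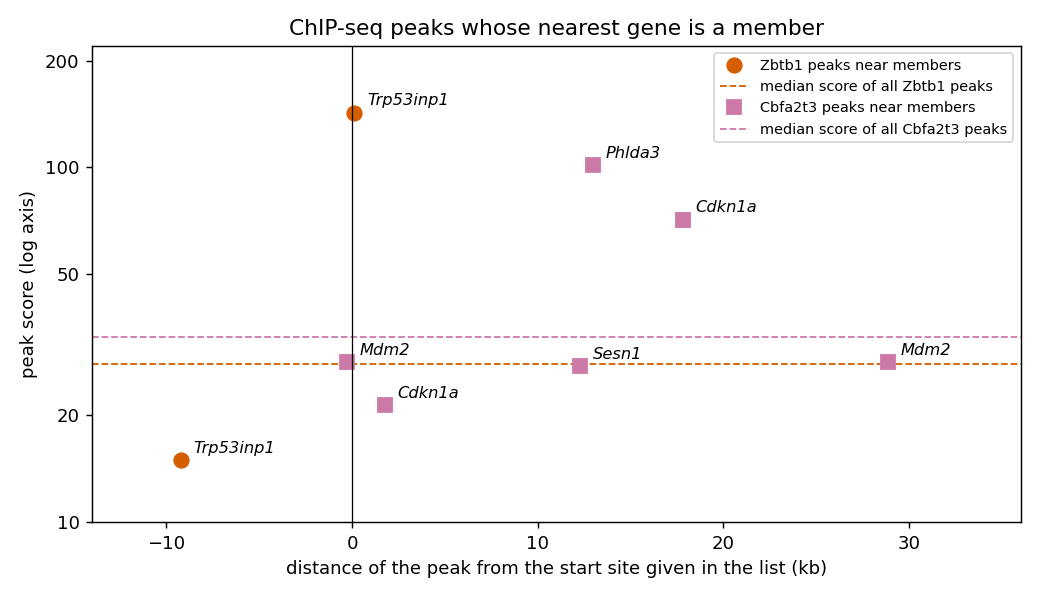
Score (log axis) of the 8 ChIP-seq peaks whose nearest gene is a member, by distance in kb from the start site given in the lists; circles are Zbtb1, squares Cbfa2t3, and dashed lines the median scores of all peaks (28.0 and 33.2). The *Trp53inp1* peak at the start site and the *Phlda3* and distal *Cdkn1a* peaks lie above the medians, and the other 5 lie below that of their factor.

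The central bases of these peaks are given on the plus strand of mm10, without annotated exons, for the strongest Zbtb1 peak, the Cbfa2t3 peaks of the gene that rose, and those at *Phlda3*, the *Mdm2* promoter and *Sesn1*. Capitals mark TGTGGT, the core of the Runx motif, or its complement ACCACA, and CAGCTG, an E-box that bHLH factors bind, which reads the same on both strands.
Trp53inp1, Zbtb1, chr4:11156548-11156657: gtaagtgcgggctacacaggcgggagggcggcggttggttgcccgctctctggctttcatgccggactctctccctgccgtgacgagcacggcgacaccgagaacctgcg
Cdkn1a distal, Cbfa2t3, chr17:29111468-29111667: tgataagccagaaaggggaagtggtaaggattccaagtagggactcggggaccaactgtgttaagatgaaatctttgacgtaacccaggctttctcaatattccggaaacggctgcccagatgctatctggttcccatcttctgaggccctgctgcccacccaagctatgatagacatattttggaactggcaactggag
Cdkn1a intron 1, Cbfa2t3, chr17:29095436-29095635: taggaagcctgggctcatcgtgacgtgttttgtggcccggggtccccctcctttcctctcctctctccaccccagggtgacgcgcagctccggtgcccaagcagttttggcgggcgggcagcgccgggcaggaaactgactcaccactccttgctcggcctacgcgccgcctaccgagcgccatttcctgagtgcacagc
Phlda3, Cbfa2t3, chr1:135778954-135779153: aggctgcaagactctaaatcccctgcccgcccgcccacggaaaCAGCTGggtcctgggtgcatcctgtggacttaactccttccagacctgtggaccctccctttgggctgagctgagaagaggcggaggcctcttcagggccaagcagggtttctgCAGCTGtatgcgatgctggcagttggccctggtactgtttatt
Mdm2 promoter, Cbfa2t3, chr10:117710918-117711117: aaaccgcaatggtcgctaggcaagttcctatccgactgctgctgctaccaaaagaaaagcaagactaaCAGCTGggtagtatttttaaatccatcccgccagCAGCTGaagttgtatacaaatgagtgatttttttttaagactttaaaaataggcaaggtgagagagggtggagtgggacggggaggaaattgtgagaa
Sesn1, Cbfa2t3, chr10:41899634-41899833: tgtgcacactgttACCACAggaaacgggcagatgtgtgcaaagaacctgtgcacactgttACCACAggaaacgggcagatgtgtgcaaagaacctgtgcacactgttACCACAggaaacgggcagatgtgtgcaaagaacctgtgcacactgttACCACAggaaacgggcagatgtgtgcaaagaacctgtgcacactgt
CAGCTG was found in 3 of the 6 central 200-base windows of Cbfa2t3 peaks at members, 2 times each at *Phlda3*, at the *Mdm2* promoter and at the distal *Mdm2* peak, and in 47.5% of the 6070 Cbfa2t3 windows on assembled chromosomes. TGTGGT was found in 2 of the 6, at *Sesn1* and the distal *Mdm2* peak, against 43.7%, and in 1 of the 2 Zbtb1 windows, the weak peak of *Trp53inp1*, against 41.3% of 5890. Neither was found in the windows of *Cdkn1a*. The *Sesn1* window is a tandem repeat in which TGTGGT returns 4 times at a spacing of 47 bases, and the authors kept reads that mapped to as many as 10 places. Pairs of exact p53 half-sites were found in 0 windows of either list, and a single exact half-site in 1 of the 8 windows at members, that of the *Mdm2* promoter, against 5.47% of Cbfa2t3 and 3.38% of Zbtb1 windows. Sites that differ from the pattern in any base were not counted, so these shares do not show that p53 sites are absent.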

How the data were processed

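QuantSeq reads were trimmed with fastp and mapped to mm10 with STAR by the authors, who deposited values per gene scaled to a common library total (CPM, called TPM). Whole reads were recovered for 100% of the low values, to within 0.1 read. ChIP-seq reads were mapped with Bowtie 1.1.1, and peaks were called with HOMER; the deposited peak score is at least 15 for every peak found in both replicates. Strand setting and annotation of the counting were not given in the sources used here. For this report, 11554 genes with a mean above 1 TPM were fitted with limma 3.58.1 (R 4.3.3) on log2(TPM + 1) over all 15 libraries, with Benjamini-Hochberg adjustment over these genes; standard errors come from that fit. Alternatives used edgeR 4.0.16 (quasi-likelihood) and DESeq2 1.42.0 on recovered reads, which called 569 and 511 genes in sgZbtb1 against sgControl. Gene models came from GENCODE vM21, promoters and genome from RefSeq (GRCm38.p6). The limma and edgeR fits were tested on simulated data with planted changes larger than that of *Cdkn1a*. The members, lists and tests were chosen with earlier results of these data known. Genes named from the lists are those called in any comparison and the 2 with the smallest p in sgZbtb1 against sgControl; for likeness, the 3 highest r. A line of the table without a gene was left out.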

Additional observations from a re-analysis of the deposited data

Results flagged for a closer look

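*Cdkn1a* was singled out because its level in sgZbtb1 differed from that in the 9 libraries with sgRNAs against the other 3 genes, by 0.45 on the log2 scale (limma adjusted p = 1.73e-05), with all 3 sgZbtb1 libraries above the 9. With 3 libraries a group, single libraries were not examined as outliers.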

How the results depend on the processing

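The 5 counts of members called were recomputed with 9 other settings each and without each library in turn. A two-sided test of unlogged values with equal variances was run with adjustment over all genes. The paper names a two-sided Student's t test in general. It does not state the test or scale behind its changed genes, and its rule for them names no adjustment. The test run here gave 0 in sgZbtb1 against sgControl and 0 against the 9 other gene-targeting libraries. In the latter, edgeR, DESeq2, the fit with size factors by the median of ratios and that with a replicate block each gave 2, *Cdkn1a* and *Ccng1*, and leaving out 1 library gave 1 to 2, the second being *Ccng1* without sgCbfa2t3 replicate 2. The other counts stayed at 1 in sgZbtb1 and at 0 for the other sgRNAs. Members near Cbfa2t3 peaks numbered 2 with a score of at least 30 and 2 within 10 kb. *Cdkn1a* kept its call in the other 14 and 20 alternatives (adjusted p up to 0.0260 and 0.00573). Of the values of single named genes, 1200 kept their call or, where none was called, stayed within 1 standard error, 41 lost a call, 18 gained one, 17 without a call moved further, and no called value changed sign. Same-numbered libraries of different conditions had a mean r of 0.0408 (−0.0131 to 0.113), against −0.0204 for libraries with different numbers, and 2 of 30 same-numbered pairs were over 0.1. The main fit did not take the numbers as pairs, although 14 of 15 libraries were most like their own number. The replicate block raised the genes called in sgZbtb1 against sgControl from 554 to 709, and with it *Ddit4* against sgControl (adjusted p = 0.0306) and *Cdkn2a* against the 9 (adjusted p = 0.0445) passed. The test on unlogged values called 7 and 41 genes in the 2 comparisons of sgZbtb1. Among the members, *Phlda3* had the fewest reads, 14 to 35 a library, and the listed gene *Aen* had 9 to 26.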
